A study of Arabidopsis thaliana with 12 samples.

Results

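SAUR (small auxin upregulated RNA) genes form a large plant family of short, mostly intronless genes, many of which auxin switches on within minutes. The best studied SAUR proteins bind and inhibit PP2C.D phosphatases, which keeps the proton pumps of the plasma membrane active, acidifies the cell wall and lets cells expand. Other SAUR genes answer to light, brassinosteroid or ethylene, and family members differ in the organ where they are expressed. Of 55 SAUR locus codes listed, 4 had a probe set paired with that gene alone and are described here: SAUR57 (AT3G53250), SAUR10 (AT2G18010), SAUR53 (AT1G19840) and SAUR4 (AT4G34800). The other 51 were not analysed here, so nothing below speaks for the family as a whole. Genes with a probe set of their own numbered 16548 in all.

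RNA came from Arabidopsis thaliana seedlings that carry CLE2, a gene for a small secreted peptide, under an estradiol-inducible system. All 12 samples carry this construct. Seedlings were grown at 22 °C, and at an age of 7 days their roots received β-estradiol or the solvent DMSO for 24 h; roots and shoots were then taken separately. The groups follow each sample's title and treatment field, whereas the protocol text is the same for every sample, DMSO samples included, and describes β-estradiol at 5 mM. That dose could not be checked against the data. Each of the 4 groups (roots with DMSO, roots with estradiol, shoots of DMSO-treated seedlings and shoots of seedlings with estradiol on the roots) had 3 arrays. Every SAUR difference between estradiol and DMSO therefore holds the effects of the inducer and of CLE2 together, since no seedlings without the construct were given estradiol. The labels name neither the promoter that drives the inducible system nor the number of lines, and CLE2 itself was not analysed here. Nothing in them says that the replicates were grown separately, so a p-value here measures the spread among these arrays, part or all of which may be technical.

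The organ labels were checked with marker genes. The 5 photosynthesis genes that were measured had lower signal in roots than in shoots under DMSO (limma, adjusted p under 0.05 for each), with a median log2 difference of -3.28. All 5 measured root markers, among them the lateral root gene LBD16 and the root hair gene EXPA18, were higher in DMSO roots, with a median of 3.002. Of the DMSO root arrays, replicate 3 had the highest median signal, 4.64 against 3.74 and 3.83, over 26 genes that were over 5 log2 units higher in shoots on the estradiol arrays. The photosynthesis markers did not set that array apart: their median was 8.11, 8.53 and 8.30 on DMSO root replicates 1 to 3.

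With all 12 arrays fitted by group, only SAUR57 of the 4 had an organ difference at an adjusted p under 0.05 (limma). SAUR57 signal was lower in roots than in shoots, with or without estradiol. In DMSO roots its log2 signal was 2.18, 1.75 and 1.64 (mean 1.86 ± 0.29, SD, n = 3), and in DMSO shoots it was 3.62, 3.401 and 3.59 (3.54 ± 0.12). In estradiol roots it was 2.05, 1.96 and 1.93 (1.98 ± 0.06), and in estradiol shoots 3.85, 3.64 and 3.99 (3.82 ± 0.18). All 6 root arrays lay between 1.64 and 2.18 and all 6 shoot arrays between 3.401 and 3.99, so the organs did not overlap in either treatment. The DMSO difference of -1.68 ± 0.14 log2 units (SE) is a signal 3.201-fold lower in roots, with a 95% interval of 2.57 to 3.99 (limma, adjusted p = 1.39e-06). On the estradiol arrays, which share none with the DMSO comparison, the difference was -1.85 ± 0.14, or 3.596-fold lower (2.89 to 4.48; limma, adjusted p = 6.29e-07).

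The SAUR57 values were low, and an offset changed the size of this difference but not its direction. With 16 added to the linear signal before the logarithm, the root minus shoot difference shrank to -0.49 under DMSO and -0.60 under estradiol, and both were still called. DMSO root replicate 3 held the lowest SAUR57 value; without it the DMSO difference was -1.57. The values carry no detection call, so whether SAUR57 was above background in roots or in shoots was not tested, and both folds hold for the deposited signal only. For scale, genes over 5 log2 units higher in roots, chosen on the arrays of the other treatment, had medians of 3.57 to 3.81 on the shoot arrays. Genes over 5 log2 units higher in shoots, chosen likewise, had medians of 3.53 to 4.64 on the root arrays. SAUR57 lay below these on every root array, so such medians do not mark its background.

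SAUR10, a growth-related member that the transcription factor FRUITFULL is known to repress in stems and fruits, had even values in roots and uneven ones in shoots. It was at 2.44, 2.18 and 2.34 in DMSO roots (2.32 ± 0.13, SD, n = 3) and at 2.201, 2.32 and 2.28 in estradiol roots (2.27 ± 0.06). In DMSO shoots it was at 3.04, 2.11 and 2.38 (2.51 ± 0.48), and in estradiol shoots at 3.45, 2.78 and 2.47 (2.90 ± 0.50). Replicate 1 was the highest shoot array in both treatments. The DMSO groups of the organs overlapped, while on the estradiol arrays every shoot value lay above every root value. All SAUR10 values were low, from 2.11 to 3.45, and whether the gene was above background in either organ was not tested.

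The SAUR10 organ difference did not pass the threshold in either treatment when all 12 arrays were fitted by group. Under DMSO it was -0.19 ± 0.26 (root minus shoot, SE; limma, adjusted p = 0.558), and it was 0.01 after quantile normalization, which moved the median organ difference of all genes from -0.09 to 0.01. On the estradiol arrays it was -0.63 ± 0.26 (limma, adjusted p = 0.0583), with a 95% interval of -1.20 to -0.07. This difference crossed the threshold when some arrays were left out. Without estradiol shoot replicate 3 it was -0.85 (limma, adjusted p = 0.0200). Limma's adjusted p was 0.0267 without DMSO shoot replicate 1 and 0.0454 without DMSO shoot replicate 2. The DMSO shoot arrays enter this comparison only through the shared spread, so the difference stayed at -0.63 without them. Without estradiol shoot replicate 1, the highest array, the difference fell to -0.36 (limma, adjusted p = 0.220). After quantile normalization its 95% interval was -1.02 to 0.18. With 16 added to the linear signal the difference was -0.19, and it was not called.

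SAUR53, overexpression of which is known to lengthen Arabidopsis organs, showed no group that stood apart from the others. Its values were 4.47, 5.39 and 4.56 in DMSO roots (4.81 ± 0.51, SD, n = 3), 4.70, 4.54 and 4.52 in estradiol roots (4.59 ± 0.10), 4.54, 4.97 and 4.66 in DMSO shoots (4.72 ± 0.22) and 4.14, 4.93 and 4.60 in estradiol shoots (4.55 ± 0.40). DMSO root replicate 2 was the highest of the 12 arrays, and all groups overlapped. The root minus shoot difference was 0.08 ± 0.25 under DMSO (SE; 95% interval -0.47 to 0.63; limma, adjusted p = 0.800) and 0.03 ± 0.25 under estradiol (-0.52 to 0.58; limma, adjusted p = 0.921). The DMSO difference turned to -0.21 without DMSO root replicate 2, so it has no settled direction.

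SAUR4, which lies in a row of neighbouring SAUR genes, had no organ difference past the threshold either. Its values were 4.47, 4.87 and 4.50 in DMSO roots (4.62 ± 0.22, SD, n = 3) and 4.05, 5.08 and 4.69 in estradiol roots (4.61 ± 0.52). In shoots they were 4.64, 4.50 and 3.86 with DMSO (4.33 ± 0.42) and 4.34, 4.18 and 4.64 with estradiol (4.39 ± 0.23). The lowest array was DMSO shoot replicate 3 and the highest estradiol root replicate 2, and the groups overlapped in each comparison. The root minus shoot difference was 0.28 ± 0.27 under DMSO (SE; 95% interval -0.30 to 0.87; limma, adjusted p = 0.395) and 0.22 ± 0.27 under estradiol (-0.37 to 0.81; limma, adjusted p = 0.514). These intervals allow a SAUR4 difference of up to 0.87 log2 units between organs under DMSO.

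**Figure D1:**
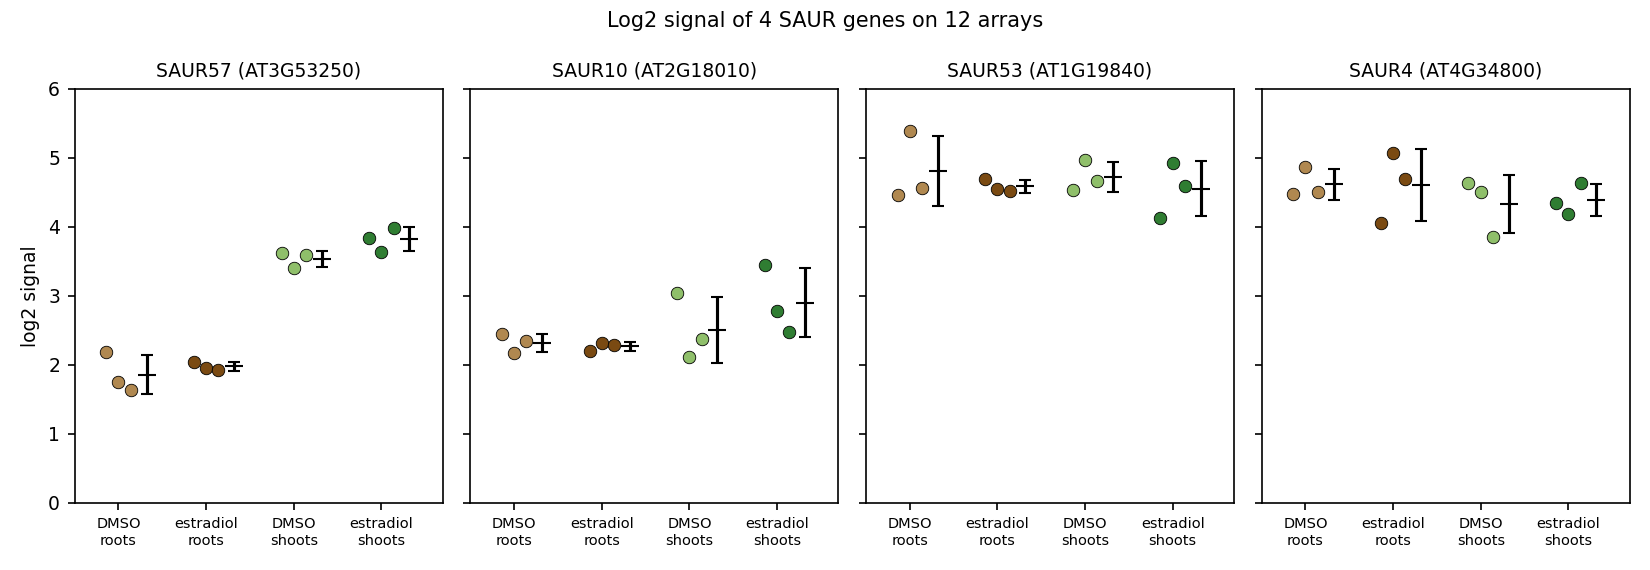
Log2 signal of SAUR57, SAUR10, SAUR53 and SAUR4 (vertical axis) on the 3 arrays of each group (horizontal axis); points are arrays in the order of replicates 1 to 3, and the bar beside them is the mean ± SD. SAUR57 lies between 1.64 and 2.18 on the root arrays and between 3.401 and 3.99 on the shoot arrays, while the other genes overlap between organs in at least 1 treatment; levels of different genes come from different probes and are not comparable.

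Thus 1 of the 4 SAUR genes was called between organs under DMSO and 1 under estradiol, SAUR57 both times. Among all 16548 genes, 52.5% were called between DMSO roots and DMSO shoots and 52.5% between estradiol roots and estradiol shoots. Genes lower in roots, as SAUR57 was, made up 25.8% under DMSO and 26.0% under estradiol. Groups that did not overlap were found for 1 SAUR gene of 4 under DMSO, where 59.8% of all genes had them, and for 2 of 4 under estradiol, where 60.4% had them. With only 4 genes, these counts do not set SAUR genes apart from other genes. Their median organ difference was -0.05 under DMSO and -0.30 under estradiol, where the median over all genes was -0.09 in each.

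In roots, the treated organ, none of the 4 SAUR genes passed the threshold for estradiol against DMSO (0 of 4, limma; 0 at an unadjusted p under 0.05; adjusted p = 1.00 for each). Differences were 0.12 ± 0.14 log2 units (SE) for SAUR57, -0.05 ± 0.26 for SAUR10, -0.22 ± 0.25 for SAUR53 and -0.01 ± 0.27 for SAUR4. Their 95% intervals all lay between -0.77 and 0.58. The groups overlapped for all 4 genes. The SAUR57 difference was 0.0095 without DMSO root replicate 3 and 0.28 without DMSO root replicate 1, where its 95% interval was 0.0084 to 0.56 and it was not called. Without DMSO root replicate 2, its highest array, the SAUR53 difference was 0.07. Of all genes, 0% were called in roots, and 12.3% had groups that did not overlap.

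In shoots, whose roots alone were treated, SAUR57 and SAUR10 had the larger estradiol differences, and neither passed the threshold (0 of 4, limma; 0 at an unadjusted p under 0.05). SAUR57 was 0.29 ± 0.14 log2 units higher with estradiol (SE, 95% interval -0.03 to 0.60, limma, adjusted p = 0.548). Its 3 estradiol shoot values, from 3.64, lay just above its 3 DMSO shoot values, up to 3.62. The SAUR57 interval was 0.043 to 0.53 without DMSO root replicate 1 and 0.043 to 0.70 with array medians subtracted. It was 0.037 to 0.73 without estradiol shoot replicate 2. With replicate number within each organ as a block, on all 12 arrays, it was 0.030 to 0.55. SAUR57 was not called in any of these fits. Groups that did not overlap, as for SAUR57 alone of the 4, were found for 13.2% of all genes in shoots, and 0.163% were called. SAUR10 had a difference of 0.39 ± 0.26 (95% interval -0.18 to 0.96; limma, adjusted p = 0.666) with overlapping groups. The SAUR10 value was 0.66 without DMSO shoot replicate 1, where its 95% interval was 0.13 to 1.18. It was 0.11 without estradiol shoot replicate 1 and 0.19 without DMSO shoot replicate 2. Without estradiol shoot replicate 3 it was 0.61, with a 95% interval of 0.029 to 1.18. With the replicate block on all 12 arrays it stayed at 0.39, and its 95% interval was 0.073 to 0.71. SAUR10 was not called in any of these fits. SAUR53 was at -0.17 ± 0.25 and SAUR4 at 0.06 ± 0.27. Among the 8 estradiol intervals in the fit of 12 arrays by group, without a block, the upper bound for SAUR10 lay farthest from 0. All 8 stayed within 1 log2 unit of 0 in that fit.

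Whether estradiol shifted a SAUR gene differently in shoots than in roots was tested directly. None of the 4 was called (0 of 4, limma; 0 at an unadjusted p under 0.05), against 0% of all genes called and 5.41% at an unadjusted p under 0.05. The shoot minus root difference of effects was 0.17 ± 0.20 for SAUR57, 0.44 ± 0.36 for SAUR10, 0.05 ± 0.35 for SAUR53 and 0.06 ± 0.38 for SAUR4 (SE; limma, adjusted p between 0.993 and 0.999). With 1 array left out the value ranged from 0.0054 to 0.28 for SAUR57, lowest without DMSO root replicate 1, and from 0.17 without estradiol shoot replicate 1 to 0.71 without DMSO shoot replicate 1 for SAUR10. In the latter fit the SAUR10 interval was 0.0076 to 1.41, and limma's adjusted p was 0.753. For SAUR57 this is also the test of whether its organ difference was wider with estradiol, as both contrasts use the same 4 groups. Fewer cells that express SAUR57 and less SAUR57 RNA per cell cannot be told apart in whole roots or shoots.

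**Figure D2:**
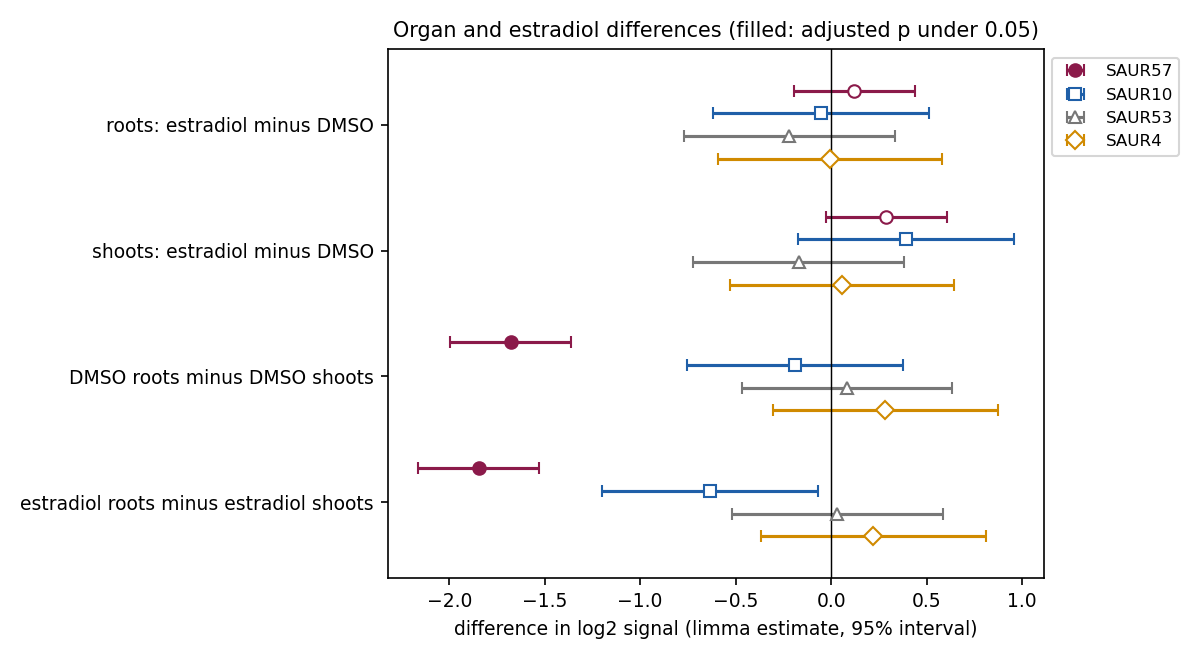
Differences in log2 signal with 95% intervals from limma (horizontal axis) for SAUR57, SAUR10, SAUR53 and SAUR4 in 4 comparisons (vertical axis); filled symbols passed an adjusted p of 0.05. Both organ differences of SAUR57, at -1.68 and -1.85, are filled, and all 8 estradiol differences are open with intervals that include 0.

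The 4 genes also differed in how closely replicates matched. The SD within groups, pooled over the 4 groups, was 0.18 for SAUR57, near the median of 0.19 over all genes. It was 0.34 for SAUR53, 0.35 for SAUR10 and 0.37 for SAUR4, larger than that of 87.9%, 89.2% and 91.0% of genes. The mean signal of each of the 4 was below the median mean of all genes (5.26), so a filter at that level would have removed all 4.

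By the gene order of RefSeq assembly TAIR10.1, SAUR4 is one of 7 SAUR genes in an unbroken row from AT4G34750 to AT4G34810, and it is the only one of the row analysed here. Related SAUR copies can share sequence, and whether RNA of its neighbours bound to the SAUR4 probes was not tested. SAUR57, SAUR10 and SAUR53 have no SAUR gene directly beside them. The next protein-coding gene after SAUR53 is MP (MONOPTEROS, the auxin response factor ARF5), and the next after SAUR57 is PAL2, a phenylalanine ammonia-lyase gene; neither was analysed here. No other annotated gene overlapped any of the 4.

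Genes of auxin synthesis, transport and response, the phosphatases and proton pumps on which SAUR proteins act, and light and brassinosteroid regulators were taken from 9 lists of 114 genes, of which 23 genes in 5 lists had a probe set of their own. No auxin receptor (0 of 6), auxin response factor (0 of 15), auxin transporter (0 of 15) or plasma membrane proton ATPase (0 of 11) had a probe set paired with it alone in the annotation used, and these lists were not analysed here. Between DMSO roots and DMSO shoots, 15 of the 23 genes were called, 8 higher and 7 lower in roots, against 52.5% of all genes. On the estradiol arrays 16 were called, 10 higher and 6 lower. The median difference of the 23 was 0.11 under DMSO and 0.07 under estradiol, beside -0.09 for all genes in each.

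Among the enzymes that make auxin, all 4 measured YUCCA flavin monooxygenase genes were called between organs under DMSO, as were 52.5% of all genes. YUC6 was higher in DMSO roots by 1.298 ± 0.13 log2 units (SE), while YUC4 (-1.60 ± 0.23), YUC2 (-0.94 ± 0.18) and YUC11 were lower, as SAUR57 was. Of the 6 group II GH3 genes, which encode enzymes that conjugate auxin to amino acids and are often auxin-induced, 3 were higher and 2 lower in DMSO roots, where 26.6% of all genes were called higher and 25.8% lower. GH3.1 was higher by 2.54 ± 0.17 and GH3.17, which makes auxin-glutamate, by 1.96 ± 0.21, while GH3.9 was lower by a difference of -1.97 ± 0.18. Only 1 gene of the Aux/IAA repressors, a family of nuclear proteins of auxin response, was higher in DMSO roots (IAA31, 0.96 ± 0.19) and 1 lower (IAA18, -1.14 ± 0.12), out of 8 measured. On the estradiol arrays IAA33 was called as well, at 0.63 ± 0.20. The call was lost without estradiol root replicate 1 (0.43, limma, adjusted p = 0.0852) or estradiol shoot replicate 1 (0.51, limma, adjusted p = 0.0767). Some of these signals were low, with a mean of 2.77 for YUC4 in DMSO roots and 3.01 for IAA31 in DMSO shoots. Over all refits the DMSO difference ranged from -1.70 to -0.69 for YUC4 and from 0.40 to 1.13 for IAA31. Whether these genes were above background was not tested.

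Of the 4 measured PP2C.D phosphatase genes, whose products SAUR proteins inhibit, 3 were higher in roots than in shoots under DMSO and all 4 under estradiol. Of all genes, 26.6% were called higher in roots under DMSO and 26.5% under estradiol. Under DMSO the differences were 0.67 ± 0.11 for PP2C.D6, 0.45 ± 0.09 for PP2C.D2 and 0.38 ± 0.11 for PP2C.D3 (SE), with limma's adjusted p between 0.000231 and 0.0126, and PP2C.D4 had a difference of 0.11 ± 0.12 that was not called. PIF7, a transcription factor that drives growth genes under shade, was the only measured regulator of the light and brassinosteroid list and was lower in roots by a difference of -4.02 ± 0.15 under DMSO and -3.68 ± 0.15 under estradiol. In the estradiol comparisons 0 of the 23 genes were called in roots and 0 in shoots (limma; 0 and 5 at an unadjusted p under 0.05, which 5.17% of all genes reached in roots and 9.95% in shoots). The smallest adjusted p in shoots was 0.349, for the GH3.5 difference of 0.32 ± 0.11.

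**Figure D3:**
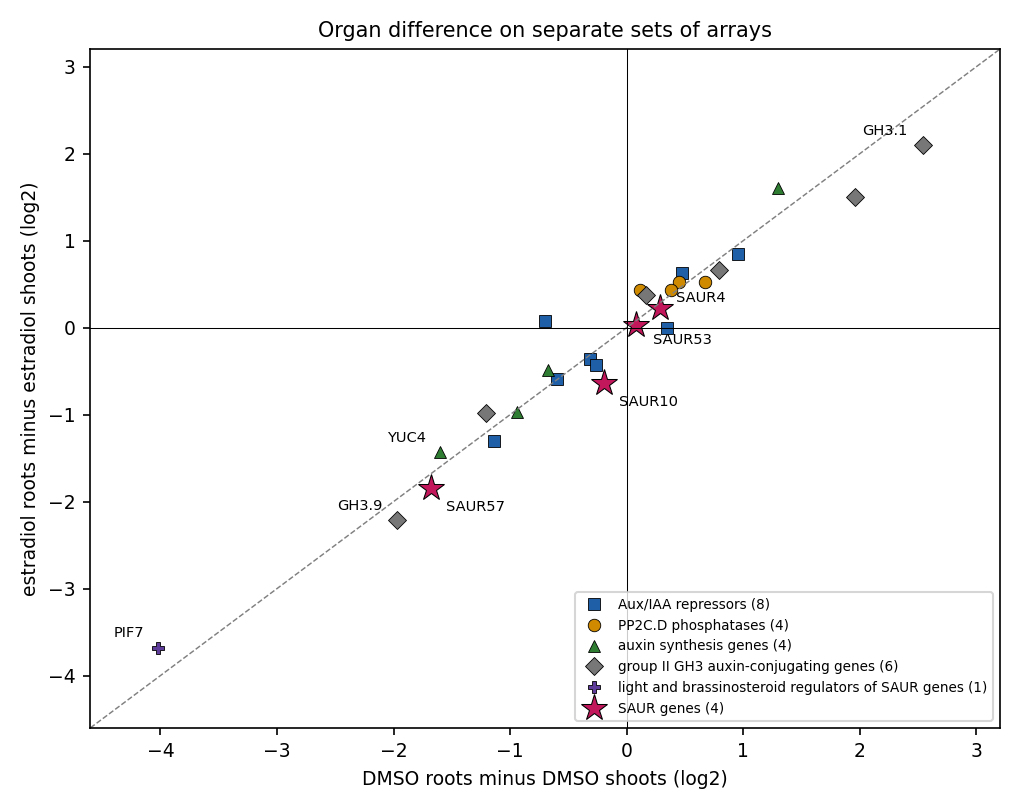
Root minus shoot difference in log2 signal on the DMSO arrays (horizontal axis) and on the estradiol arrays (vertical axis) for the 4 SAUR genes (stars) and the 23 measured auxin pathway genes, marked by list; the dashed line marks equal differences. SAUR57 lies at -1.68 and -1.85, PIF7 at -4.02 and -3.68, and GH3.1 at 2.54 and 2.097, while SAUR53 and SAUR4 lie within 0.3 of 0 on both axes.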

How the data were processed

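The authors' deposited values are log2 signals, 1 per probe set on each of 12 arrays, for which the submitters' processing notes name Affymetrix Expression Console 1.3; how probes were summarized and arrays normalized is not given in the sources used here. GEO's platform annotation paired 16722 of 38408 probe sets with 1 gene; where several remained, the one with the highest mean was kept. Each SAUR gene had 1, matched by locus code, since the annotation's gene IDs for them are not in the RefSeq table (TAIR10.1).

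R 4.3.3 with limma 3.58.1 fitted a mean per group over 12 arrays (8 residual degrees of freedom), with Benjamini-Hochberg adjustment over all 16548 genes; adjusted p under 0.05 was called. The number of arrays limits the precision. The code was tested on simulated data. All 4 SAUR genes are named; per list and organ contrast, up to 3 called genes were named by size, and GH3.5, YUC11 and PP2C.D4 fall outside this rule and were picked after their values were seen. Members and lists were chosen with earlier results of these data known. Same-numbered arrays were not treated as pairs: their deviations from group means correlated at 0.023 to 0.137, over 0.1 in 2 of 12 pairs. No protein or promoter sequence was used.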

Additional observations from a re-analysis of the deposited data

How the results depend on the processing

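Each SAUR difference was refitted with other models, scalings, offsets, thresholds and probe-set rules, and without each array in turn (408 refitted differences in all). The call of SAUR57 between organs held in 40 of 40 refits, and 0 SAUR genes were called for estradiol in any refit. Among genes above the median level no SAUR gene is left, so that refit gives no value. The numbers of SAUR genes called between estradiol roots and estradiol shoots lay between 1 and 2 with 1 array left out, and came to 2 with a replicate block of seedling sets, where SAUR10 was called (difference -0.63, limma, adjusted p = 0.0492, range over its refits 0.0200 to 0.234). The replicate block changed no other SAUR call. Differences that turned sign were not called in any refit. The SAUR4 root effect of estradiol was 0.028 after quantile normalization, 0.041 with array medians subtracted and 0.0083 with 16 added; the SAUR10 DMSO organ difference was 0.014 after quantile normalization. With 1 array left out, the estradiol effect in roots ranged from -0.39 to 0.072 for SAUR53, -0.12 to 0.0088 for SAUR10 and -0.24 to 0.27 for SAUR4, and in shoots from -0.36 to 0.040 for SAUR53 and -0.18 to 0.21 for SAUR4. The difference of these effects ranged from -0.24 to 0.26 for SAUR53 and -0.21 to 0.30 for SAUR4. The DMSO organ difference ranged from -0.21 to 0.25 for SAUR53 and -0.39 to 0.074 for SAUR10, and the estradiol one from -0.18 to 0.22 for SAUR53 and -0.015 to 0.50 for SAUR4. With each organ fitted alone, the interval of the SAUR10 effect in shoots reached 1.18. The refits of the auxin lists were chosen after the data were seen. In them 10 to 17 genes were called between organs under DMSO and 12 to 18 under estradiol, the lowest where dim genes were removed. Removing dim genes also dropped list genes, so those lowest counts are out of fewer than 23 genes and do not by themselves show lost calls. Of all genes, 27 were called for estradiol in shoots, against 0 with each organ fitted alone, 1 at an adjusted p under 0.01, 59 with array medians subtracted, 77 with 16 added and 91 with trend and robust settings; with 1 array left out it was 0 to 19, and 0 without estradiol shoot replicate 1 or 3. For a difference of effects between organs, 1 gene was called with trend and robust settings and 1 without DMSO shoot replicate 2, against 0 otherwise.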
